A study of Homo sapiens and Mus musculus with 24 samples.

Results

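Neuro2a is a mouse neuroblastoma cell line, and the 6 Neuro2a samples of the series form the subject here: 3 libraries from UV-irradiated cells (UVp, UPA-seq) and 3 from nonirradiated cells (UVm, conventional RNA-seq), out of 24 samples in all. The genes described are the 17425 of 53715 in the mouse count files whose mean over the nonirradiated libraries reached 0.5 CPM, a count divided by all gene counts of its library and rescaled. Both groups are the same line, with no genotype, agent or time differing between them, and in both the RNA was taken with TRIzol from lysates that had been warmed before chloroform was added. Ribosomal RNA was then removed with a Ribo-Zero kit, and a TruSeq library was made and sequenced. The labels name a TruSeq Stranded mRNA kit and the study's methods another TruSeq kit, so how RNAs without a poly(A) tail were captured is not settled here. The labels do not say whether replicates came from separate cultures, while the study calls its replicates biological triplicates, and p-values measure the spread between these libraries.

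UV light forms covalent bonds between RNA and the proteins that touch it. When irradiated cells are extracted with acid phenol and chloroform, RNA carrying a crosslinked protein collects at the interphase and protein-free RNA stays in the aqueous phase, and the libraries read the aqueous phase. A bulk measurement of this kind cannot separate fewer RNA molecules in the cell, fewer molecules recovered and fewer molecules copied into cDNA. Messenger RNAs differ widely in length and build: those for ribosomal proteins and respiratory chain subunits are short and translated in the cytoplasm, replication-dependent histone mRNAs end in a stem-loop in place of a poly(A) tail, and mRNAs for chromatin regulators or adhesion proteins are long. Small nuclear, nucleolar and mitochondrial RNAs work inside compact particles, while introns and short intronic transcripts stay in the nucleus.

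Levels below are CPM after scaling with edgeR's TMM factors, and differences are log2 fold changes of irradiated over nonirradiated libraries given by the quasi-likelihood test of edgeR. Benjamini-Hochberg adjustment ran over all 17425 genes, and a gene was called at an adjusted p under 0.05. The libraries held between 7449341 and 9002243 gene counts. The TMM factors were 1.504 to 1.525 in the nonirradiated and 0.642 to 0.689 in the irradiated libraries. With them 1 count was worth 0.0729 to 0.0892 normalised CPM in the nonirradiated and 0.186 to 0.205 in the irradiated libraries. Low genes were therefore measured less precisely after UV. Over all genes tested, 28.9% were called higher and 33.0% lower, with a median log2 fold change of -0.14. In 30.4% of genes all 3 irradiated values lay above all 3 nonirradiated values, and in 37.0% they lay below. Scaling by library size alone moved the median of all genes to -1.32, and changes are therefore to be read relative to the other genes.

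The filter uses the nonirradiated libraries. A gene barely above the threshold there was kept if it fell, while a gene below the threshold was left out even if it rose. Gm45694 lay just inside the threshold at 0.5002 CPM and 9430031K09Rik just outside it at 0.4995 CPM, and both had a mean of 0 CPM in the irradiated libraries. There were 1358 tested genes with a mean under 0.5 CPM over all 6 libraries, of which 467 were called lower and 0 higher. In CPM without TMM factors the filter guarantees a lower mean after UV in genes of that level. On the TMM-normalised scale of the test it favours falls without guaranteeing them. This weighs most on the low-abundance RNA types described further on.

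Markers of the line were present. Of 20 sympathoadrenal and neuronal markers, 19 passed the filter, and their summed level was 2828 to 3275 normalised CPM in the nonirradiated and 5357 to 6509 in the irradiated libraries. Prph, Chgb, Stmn2 and Tubb3 were among the abundant ones, whereas Th, Mycn and Isl1 stayed at about 1 normalised CPM or less, and Dbh, an enzyme of noradrenaline synthesis, lay between 5.26 and 7.36 in the nonirradiated libraries. Markers of other cells were low. Summed over its list, the level was 22.9 to 26.2 and 14.7 to 21.2 normalised CPM for 10 fibroblast markers in nonirradiated and irradiated libraries, 6.38 to 8.21 and 4.47 to 6.78 for 11 glial markers with Olig1 at 0, 7.31 to 8.48 and 5.13 to 5.54 for 10 blood and endothelial markers with Hbb-bs at 0, and 0.583 to 0.855 and 0.186 to 0.411 for 8 hepatocyte markers with Apoa1 at 0. The 10 markers of excitatory hippocampal neurons summed to 40.8 to 47.8 and 15.8 to 19.7 normalised CPM, most of it Gria2. The part of these small moves in the results was not tested.

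The make-up of the libraries shifted toward a handful of abundant RNAs after UV. Protein-coding genes other than ribosomal proteins, mitochondrial genome genes, Lars2, Ccdc107 and Ccnb1ip1 held 65.1%, 65.9% and 63.8% of the counts in the nonirradiated libraries and 36.7%, 34.8% and 34.8% in the irradiated ones. Cytosolic ribosomal protein mRNAs went the other way, from 5.76%, 6.54% and 6.33% to 10.4%, 11.3% and 12.1%. Mitochondrial rRNAs held 1.05% ± 0.0896 (SD, n = 3) before and 2.91% ± 0.178 (SD, n = 3) after UV, and the mRNAs of the mitochondrial genome 0.634% ± 0.0577 and 1.04% ± 0.111 (SD, n = 3 each). LncRNAs apart from the ribosomal locus fell in share from 3.44% ± 0.0636 to 1.70% ± 0.139 (SD, n = 3 each). In all 13 classes the groups were apart, and a two-sided exact permutation test gave p = 0.1 for each, the smallest p that 3 against 3 allows, and an adjusted p of 0.1 over the 13.

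**Figure D1:**
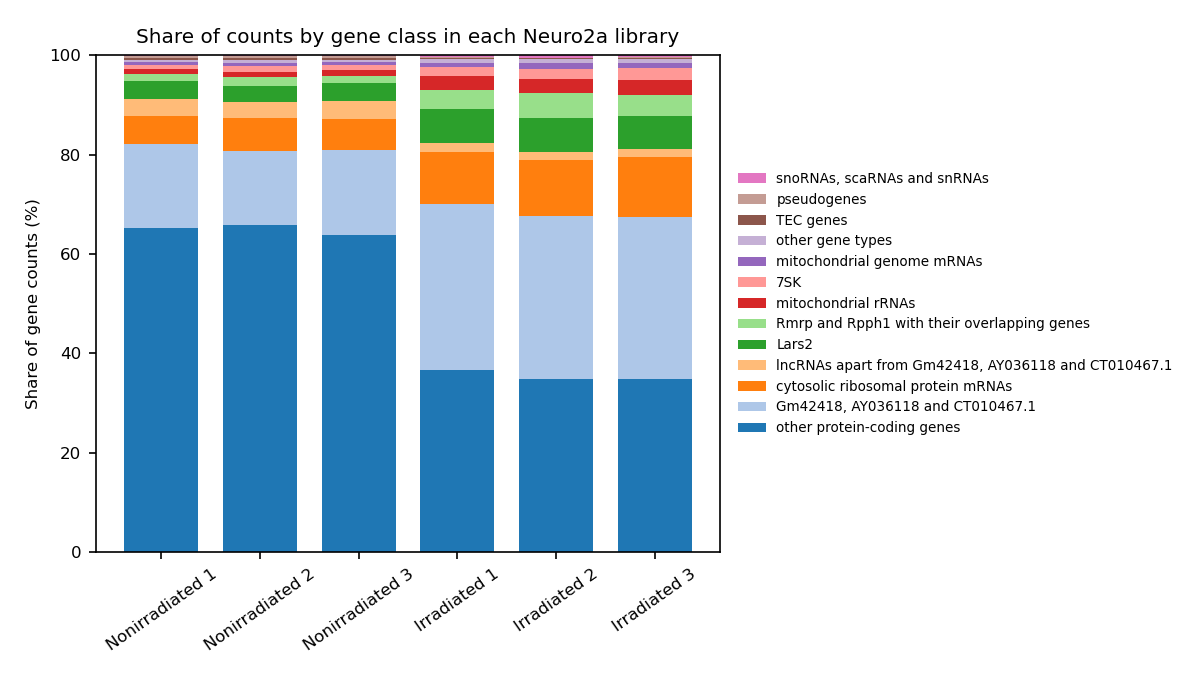
Share of gene counts (percent, vertical axis) taken by 13 gene classes in each of the 3 nonirradiated and 3 irradiated Neuro2a libraries. Coding genes other than those shown in classes of their own shrink from 63.8% to 65.9% of a nonirradiated library to 34.8% to 36.7% of an irradiated one.

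Some of the largest shares count the same reads more than once. All 923 exon bases of AY036118 lie in Gm42418, and 1822 of its 1831 exon bases lie in CT010467.1, an rRNA entry, so reads there are added to up to 3 genes. With this ribosomal locus counted once, it held 6.03% to 7.04% of nonirradiated and 15.1% to 15.6% of irradiated counts. Lars2, the mitochondrial leucyl-tRNA synthetase, shares no exon base with them and still had 23000, 20810 and 23790 normalised CPM before and 99390, 102800 and 103600 after UV. Its log2 fold change of 2.18 (SE 0.13, adjusted p = 6.7e-09) is next to the 2.21 of Gm42418. The mean share of counts on Lars2 went from 3.41% to 6.74%, and that on Gm42418, AY036118 and CT010467.1 together from 16.3% to 33.0%. Whether the Lars2 reads come from its mRNA was not tested. Among coding genes, Ccnb1ip1 and Ccdc107 carry the reads of RNAs annotated over them: Ccnb1ip1 has the same counts as Rpph1, the RNA of RNase P, in every library (log2 2.96), and Ccdc107 overlaps Rmrp, the RNA of RNase MRP (2.54 for both). Neither these coding genes nor Lars2 are read here as mRNAs.

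Protein-coding genes were close to evenly divided. Of 13119 tested, 33.3% rose and 31.5% fell, with a median log2 fold change of -0.03. Groups of related genes did not follow this balance, and the sections below take them by function, from the cytoplasmic machinery of protein synthesis to nuclear and membrane proteins.

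**Figure D2:**
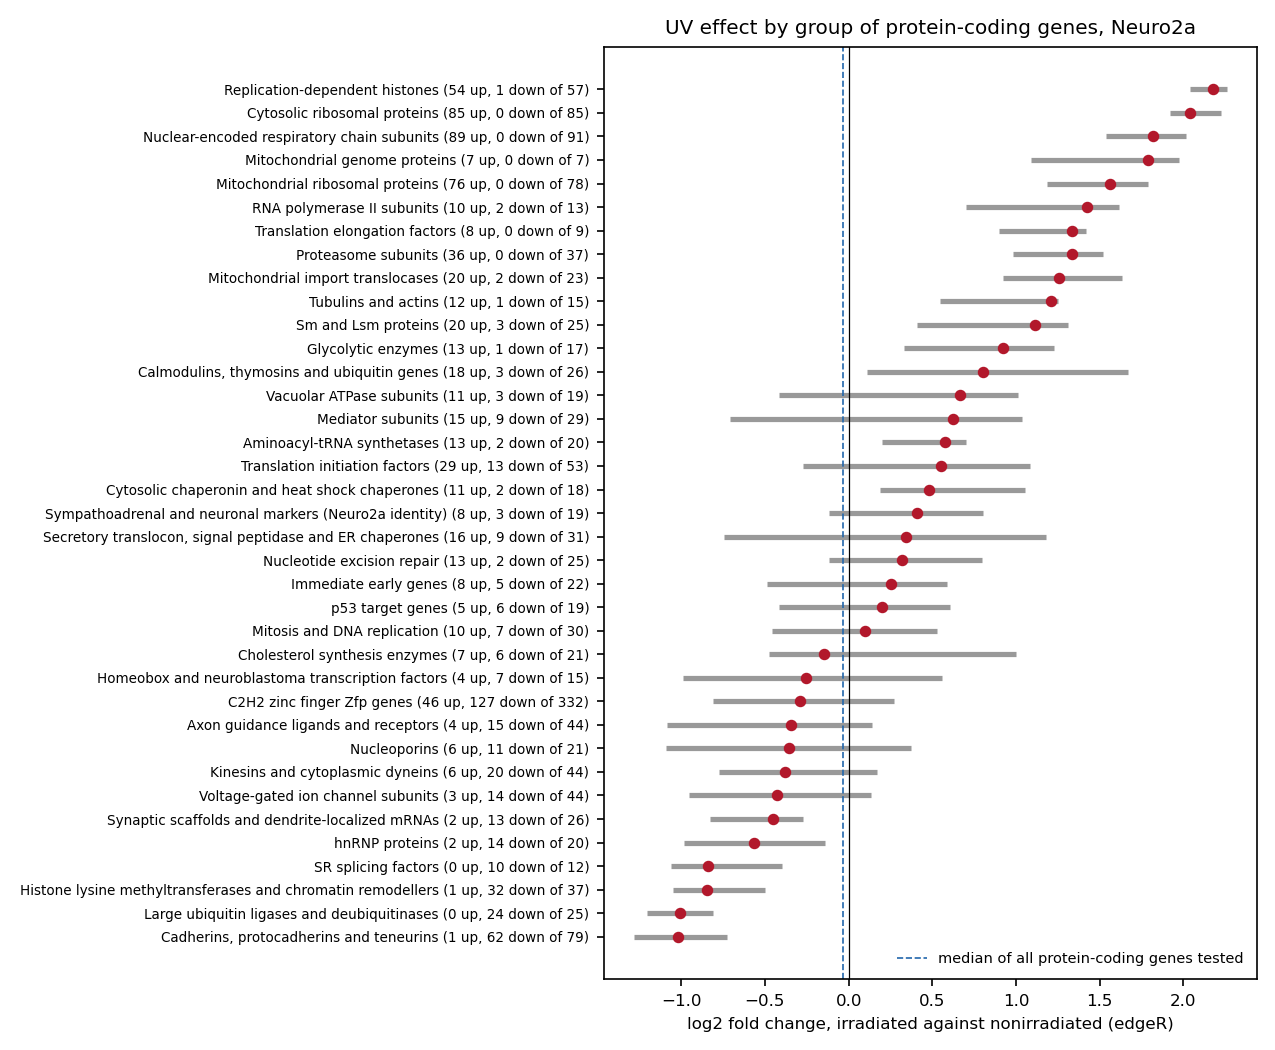
Median (red point) and interquartile range (grey bar) of the log2 fold change, irradiated against nonirradiated, for each group of coding genes with 6 or more members tested, with the numbers called up and down in the label. The medians run from -1.02 for cadherins, protocadherins and teneurins to 2.17 for replication-dependent histones, and the dashed line marks the -0.03 of all coding genes.

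Ribosomal protein genes rose without exception. All 85 cytosolic ribosomal protein genes tested were called higher (median log2 2.04, range 0.97 to 2.44). Rpl5, which binds 5S rRNA, had 1133, 1343 and 1384 normalised CPM in the nonirradiated and 3953, 5218 and 5912 in the irradiated libraries (log2 1.97, SE 0.15, adjusted p = 5.8e-08). Rplp1, a protein of the ribosomal stalk, stood at 454.5, 502.4 and 481.3 before and 2433, 2565 and 2790 after UV, with the largest rise of the group (log2 2.44, SE 0.10, adjusted p = 1.6e-09). The groups were apart for both, and the smallest rise in the list, 0.97 for Rpl7l1, belonged to a paralogue that is not a core ribosomal protein. Of the 85 genes, 46 of the unshared ones, those having no exon base in common with another gene, also rose, with a median of 2.04.

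Translation factors moved less uniformly. Of 9 elongation factor genes, 8 rose, among them Eef1b2 (log2 1.99) and Eef1a1 (1.04, SE 0.13), whose levels went from 4701, 5589 and 5478 to 9042, 11330 and 12080 normalised CPM. Eef1e1, in the same list, is a scaffold of the tRNA synthetase complex and did not pass the test at -0.11. Genes named Eif split, with 29 higher and 13 lower of 53 (median 0.55). Subunits of the eIF3 complex were at the top, Eif3k at 1.95 and Eif3h at 1.70, and Eif5a2 fell by 2.52 on the log2 scale (SE 0.25). Eif4b, a cofactor of the eIF4A helicase, did not pass the test at 0.13. Aminoacyl-tRNA synthetases, which charge tRNAs, gave 13 higher and 2 lower of 20 with a median of 0.58. Sars rose most at 1.11, while Eprs, the largest of them by exon length at 18102 bases, fell by 0.50 on the log2 scale.

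Mitochondrial proteins were next, whichever genome encodes them. Among nuclear genes for respiratory chain subunits and their assembly factors, 89 of 91 rose and none fell (median 1.82). Atp5b, the catalytic subunit of ATP synthase, read 1922, 1837 and 1775 normalised CPM in the nonirradiated libraries against 4319, 4129 and 4457 in the irradiated ones (log2 1.22, SE 0.10, adjusted p = 1.3e-07). Cox7a1, a subunit of cytochrome c oxidase, had the largest value of the list, 2.54 (SE 0.31), on much lower levels of 5.75, 10.1 and 8.30 against 23.3, 48.7 and 70.1. The irradiated values of Cox7a1 were widely spread but lay above all the others. Ndufaf4, an assembly factor, was the lowest at -0.10 and did not pass the test. Mitochondrial ribosomal proteins gave 76 higher and 0 lower of 78 (median 1.56, from Mrps2 near 0, not called, to Mrpl54 at 2.26). Translocases of the mitochondrial membranes gave 20 higher and 2 lower of 23 (median 1.26), with Timm13 at 2.22 and Timm29 falling by 0.68 on the log2 scale.

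The mitochondrial genome itself was only partly readable. Of its 13 protein genes, 7 passed the filter and all 7 rose, from mt-Nd5 at 0.65 (SE 0.12) to mt-Nd1 at 2.04 (SE 0.10). For mt-Co1, the catalytic subunit of cytochrome c oxidase, the levels were 3135, 3843 and 3430 normalised CPM before and 11240, 14390 and 15550 after UV (log2 1.98, SE 0.14, adjusted p = 3.5e-08). The other 6, mt-Co2, mt-Atp8, mt-Atp6, mt-Co3, mt-Nd3 and mt-Nd4l, had at most 11 counts in any library. In the mouse genome GRCm38 each of these 6 matches a copy on chromosome 1 with no mismatch over nearly its whole length. None of the 7 that were read has an identical copy over nearly its whole length, mt-Co1 coming closest at 97.6% identity. However, mt-Nd4 matches the chromosome 1 copy without mismatch over 876 of its 1378 bases. The 2 mitochondrial rRNAs rose by 2.70 (mt-Rnr1, SE 0.11) and 2.67 (mt-Rnr2, SE 0.13) on the log2 scale.

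Mitochondrial tRNAs rose with them. Of 17 tested, 14 rose and 0 fell, with a median log2 fold change of 2.1. The most abundant, mt-Tn, stood at 19.9, 29.4 and 21.8 normalised CPM in the nonirradiated and 168.7, 184.6 and 154.6 in the irradiated libraries (log2 2.83, SE 0.14, adjusted p = 2.5e-09). The 3 that did not pass the test were mt-Th at 0.10, mt-Ts2 near 0 and mt-Tl2 at -0.07, named here after their values were seen, and they lie side by side between mt-Nd4 and mt-Nd5, positions 11544 and 11742 of the mitochondrial genome. For mt-Th the levels were 7.85, 9.25 and 6.34 before and 8.0, 9.65 and 7.59 after UV, which overlap. mt-Nd4 (log2 1.34, SE 0.10), mt-Nd5 and mt-Nd6 (0.84, SE 0.20) were also the 3 lowest of the 7 protein genes. Part of mt-Nd4 is identical to the chromosome 1 copy, and the effect of this on its value was not tested.

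Proteasome and glycolytic genes were mostly higher. Of 37 proteasome genes, 36 rose and none fell (median 1.33), with Psmb6, a catalytic subunit, going from 83.1, 73.5 and 64.1 normalised CPM to 302.3, 272.9 and 273.2 (log2 1.94, SE 0.11, adjusted p = 5.4e-09). Only Psmd1, the largest base subunit, did not pass the test at 0.06. Glycolytic enzymes gave 13 higher and 1 lower of 17 (median 0.92): Tpi1 rose by 1.69 and Ldha by 1.37 on the log2 scale, and Hk2, a hexokinase, fell by 0.92 on that scale. Vacuolar ATPase subunits were mixed, 11 higher and 3 lower of 19 (median 0.66), with the small subunit gene Atp6v1f at 1.91. Among chaperones 11 rose and 2 fell of 18 (median 0.48), including Hspe1 (1.74), the mitochondrial co-chaperonin, Hspa8 (1.12), and Hsph1, which fell by 1.03 on the log2 scale. Hspa8 carries snoRNAs of the Snord14 family within its annotated exons, so its value includes any reads of theirs.

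In the list of calmodulin, thymosin, 14-3-3 and ubiquitin genes, 18 rose and 3 fell of 26 (median 0.80). Rps27a, which encodes ubiquitin fused to a ribosomal protein and is also counted among the ribosomal proteins, rose by 2.20 on the log2 scale. The same list held one of the clearest losses, Ywhaz, a 14-3-3 protein, which went from 321.5, 293.1 and 297.5 normalised CPM to 75.2, 47.0 and 54.2 (log2 -2.37, SE 0.14, adjusted p = 9.9e-09).

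Nearly all replication-dependent histone genes rose. Of 57 tested, 54 rose and 1 fell (median 2.17). Without irradiated replicate 1, or nonirradiated replicate 2 or 3, their median (1.945, 2.041 and 2.021) was below that of the ribosomal proteins (2.108, 2.084 and 2.086). Hist1h1c, a linker histone, had 264.9, 197.0 and 187.2 normalised CPM in the nonirradiated and 1147, 1163 and 1087 in the irradiated libraries (log2 2.39, SE 0.13, adjusted p = 4.1e-09). Hist1h4f, a gene for histone H4, stood at 75.5, 49.5 and 43.7 before and 385.7, 285.8 and 262.1 after UV (log2 2.47, SE 0.19). Irradiated and nonirradiated values did not overlap for either gene. Hist2h2bb, the histone with the most reads (2.06), shares its exon bases with the antisense gene Gm20628, which has nearly the same level and fold change (2.05), and the 2 cannot be told apart.

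The stem-loop that these mRNAs carry in place of a poly(A) tail was searched for in GRCm38 within 100 bases after the coding end. It was sought on the coding strand by its known form, a stem of 6 base pairs closed by a loop of 4 bases. The stem was also held to the histone pattern, GGYYYT on its 5′ side with Y for C or T. Hairpins with other stem bases were not counted. Of 57 histone genes, 54 held it (94.7%), against 5 of 12951 other coding genes (0.0386%) and 59 of all 13008 coding genes searched (0.454%). The form most often found and a second one are printed here with that of H2afx, the only histone gene outside the list that had one, with stem bases in capitals and the loop in lower case, written 5′ to 3′ as DNA of the coding strand.
Hist1h1c (chr13:23739512-23739527, plus strand): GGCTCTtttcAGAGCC
Hist1h4f (chr13:23551291-23551306, minus strand): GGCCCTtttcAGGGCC
H2afx (chr9:44335240-44335255, plus strand): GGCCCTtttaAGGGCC
The first sequence was found in 31 histone genes (median log2 2.085) and the second in 8 (median 2.37). Of the 54 histone genes with a stem-loop, 52 rose and 0 fell (median 2.18). Of the 5 genes outside the list that had one, 2 rose and 0 fell (median 0.46). Besides H2afx, Bap1 rose by 0.46 on the log2 scale, while Slc23a4 (0.80), Gm9918 (0.063) and AA986860 (-0.20) were not called.

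H2afx, the variant histone H2A.X that is phosphorylated at DNA breaks, is named as the only histone gene outside the list that had a stem-loop. It went from 129.3, 92.4 and 69.5 normalised CPM to 554.0, 459.6 and 348.7 (log2 2.23 with SE 0.20, adjusted p = 4.3e-07), within the range of the listed histones. The replacement histone genes H3f3a and H3f3b, without a stem-loop in the window and also named after their values were seen, rose by only 0.51 and 0.24 on the log2 scale, and H2afz by 1.47. Hist2h2be, one of the 3 listed histone genes without the stem-loop in the window, was the one that fell: 2.72, 2.33 and 2.05 before against 1.30, 0.616 and 0.615 after UV (log2 -1.45, SE 0.39, adjusted p = 0.0053). The others, Hist1h2an and Hist1h2af, rose by 2.26 and 1.74. Exon length moves with this contrast, since the listed histone genes have a median of 534 exon bases, Hist2h2be has 2620 and H3f3b has 2976, and its part in the result was not tested.

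Genes of RNA processing went in opposite directions by protein family. Sm and Lsm proteins, the ring of spliceosomal snRNPs, gave 20 higher and 3 lower of 25 (median 1.11). Snrpd2 rose from 63.8, 63.9 and 56.3 to 269.8, 267.2 and 261.1 normalised CPM (log2 2.12, SE 0.09), and Lsm14a, a P-body protein with a Lsm domain, fell by 0.88 on the log2 scale. SR splicing factors, which bind exonic enhancers, gave 0 higher and 10 lower of 12 (median -0.84). The largest fall was that of Srsf1, from 201.4, 127.2 and 145.4 to 63.4, 33.1 and 35.1 normalised CPM (log2 -1.84, SE 0.22, adjusted p = 5.7e-06), while Srsf7 at 0.04 did not pass the test. hnRNP genes gave 2 higher and 14 lower of 20 (median -0.57), led by Hnrnpl (log2 -1.98, SE 0.12) and including Hnrnpk (-0.58). The median exon length was 2753 bases for the Sm and Lsm genes, 4960 for SR genes and 5561 for hnRNP genes.

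In the transcription machinery both directions were found. RNA polymerase II subunits gave 10 higher and 2 lower of 13 (median 1.42). The 2 that fell were the 2 largest catalytic subunits, Polr2a (log2 -0.54, SE 0.12) and Polr2b (-0.25, SE 0.09), while Polr2f rose by 1.82 on that scale. The fall of Polr2b was no longer past the threshold without irradiated replicate 2 (adjusted p = 0.11) or without nonirradiated replicate 1, 2 or 3 in turn (adjusted p = 0.074, 0.086 and 0.061). Mediator subunits, which bridge activators and polymerase, gave 15 higher and 9 lower of 29. In the longest quartile of coding genes 7 of 8 Mediator genes fell and 1 rose, among them Med13 (-1.91, SE 0.11) and Med1 (-1.56), and in the shortest quartile 6 of 8 rose and 2 fell, with Med11 rising by 1.99 on the log2 scale. Of all coding genes, 62.5% were lower in the longest quartile and 62.1% higher in the shortest. Nucleoporins gave 6 higher and 11 lower of 21 (median -0.35), from Nup153 at -1.62 to Nup43 at 1.25.

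Most chromatin regulators and large ubiquitin ligases fell. Histone lysine methyltransferases and chromatin remodellers gave 1 higher and 32 lower of 37 (median -0.84). Setd5 fell most, from 142.8, 142.2 and 138.2 normalised CPM to 52.1, 42.3 and 40.4 (log2 -1.65, SE 0.11, adjusted p = 1.9e-08), and Ehmt2, a histone H3K9 methyltransferase, was the only one to rise (0.71, SE 0.09). Large ubiquitin ligases and deubiquitinases gave 0 higher and 24 lower of 25 (median -1.01). In that list Huwe1 went from 523.0, 498.0 and 504.4 to 244.5, 202.7 and 214.1 normalised CPM (log2 -1.21, SE 0.10), and Usp9x fell by 2.01 on the log2 scale (SE 0.10). Zfp genes, mostly encoding C2H2 zinc finger proteins that bind DNA, gave 46 higher and 127 lower of 332 (38.3% lower, median -0.29), and 159 were not called. The range was wide, and Zfp771 rose by 2.18 while Zfp638 fell by 0.98 on the log2 scale.

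Transcription factors of neuronal and neural crest identity did not move as one. Among 15 homeobox and neuroblastoma factors tested, 4 rose and 7 fell. Sox11 fell from 39.0, 33.5 and 30.9 normalised CPM to 6.88, 6.78 and 5.54 (log2 -2.42, SE 0.15, adjusted p = 1.4e-08) and Sox4 by 1.94 on the log2 scale, whereas Hoxc9 rose by 1.23 on that scale and Hand2, a sympathetic lineage factor, by 0.67. Gata2 fell by 0.90 on the log2 scale. Of the 19 identity markers tested, 8 rose and 3 fell (median 0.41). Stmn2, a microtubule regulator of growing axons, went from 179.5, 236.2 and 219.7 to 615.4, 823.2 and 875.1 normalised CPM (log2 1.86, SE 0.14), and Prph, a neuronal intermediate filament, rose by 1.44. Elavl4, a neuronal RNA-binding protein, fell by 2.02 on the log2 scale (SE 0.18).

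Most cadherin-like adhesion genes were lower, while most guidance and channel genes were not called. Cadherins, protocadherins and teneurins gave 1 higher and 62 lower of 79 (median -1.02). Some clustered protocadherin genes share constant exons, so 1 read can be counted for several of them. Among the 36 members with no shared exon base 20 fell and 1 rose (median -1.06), and the rest were not called. Tenm4, a teneurin, went from 134.1, 173.6 and 190.3 to 54.1, 75.6 and 74.5 normalised CPM (log2 -1.29, SE 0.15), and Pcdhb12, at 2.15 normalised CPM before UV, had no count in any irradiated library, at least 3.6-fold lower with 3 counts per library as the floor. Axon guidance genes gave 4 higher and 15 lower of 44 (34.1% lower, against 31.5% of all coding genes, median -0.34): Unc5c, a netrin receptor, fell by 2.05 on the log2 scale (254.9, 291.1 and 268.0 against 64.9, 66.3 and 65.4 normalised CPM), and Nrp2, a semaphorin receptor, by 1.34. Voltage-gated channel subunits gave 3 higher and 14 lower of 44 (31.8% lower, median -0.43), with Scn9a at -1.60. Of 26 genes for synaptic scaffolds and mRNAs known to localise to dendrites, 2 rose and 13 fell (median -0.45), among them Map1b, from 1256, 1348 and 1346 to 527.6, 540.3 and 536.3 normalised CPM (log2 -1.30, SE 0.09), and Fmr1 (-2.38, SE 0.18).

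Most tubulin and actin genes rose relative to the other genes, though with library sizes alone 0 were called higher and 5 lower. Of 15 tubulin and actin genes, 12 rose and 1 fell (median 1.21). The one that fell was Actb, cytoplasmic beta-actin, with 2019, 1850 and 1753 normalised CPM before and 1012, 762.7 and 789.2 after UV (log2 -1.13, SE 0.12, adjusted p = 1.9e-06). Actg1, the other cytoplasmic actin and named after its value was seen, rose by 0.68 on the log2 scale. Tubb5 rose by 0.41 and Tubb2b by 1.41 on the log2 scale, and Tubb3, at 0.0011, did not pass the test. Kinesins and dyneins gave 6 higher and 20 lower of 44 (median -0.38), where the heavy chain gene Dync1h1 fell by 1.22 and the light chain gene Dynll1 rose by 1.08 on the log2 scale.

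Among groups tied to UV damage or stress, nucleotide excision repair genes were more often higher and the others were divided. Of 25 nucleotide excision repair genes, which remove UV photoproducts, 13 rose and 2 fell (52.0% and 8.0%, median 0.32). Of all coding genes, 33.3% rose and 31.5% fell. The repair genes had a median of 4155 exon bases, within the second of 4 length quartiles of coding genes, whose median was 0.24. Whether UV changed the expression of these genes was not tested. Ercc1 rose by 1.35 and Uvssa fell by 1.48 on the log2 scale, while Ddb1 did not pass the test at -0.02. Among 19 p53 targets 5 rose and 6 fell (median 0.20), with Phlda3 at 1.59 and Mdm2 at -0.45, and Trp53inp1 fell by 3.31 on the log2 scale (SE 0.38). Immediate early genes, the first to be induced by stimuli, gave 8 higher and 5 lower of 22 (median 0.25), Ier3 rising by 1.41 and Junb by 0.78. Cell division genes gave 10 higher and 7 lower of 30 (33.3% and 23.3%), not far from the shares of all coding genes. Cholesterol synthesis genes gave 7 and 6 of 21 (33.3% and 28.6%), near those shares, from Hsd17b7 at -2.43 to Mvk at 1.63. In the secretory list 16 rose and 9 fell of 31. There the translocon subunit Sec61g rose by 2.08 and the chaperone Canx fell from 820.7, 765.8 and 758.6 to 353.7, 259.6 and 266.8 normalised CPM (log2 -1.41, SE 0.12).

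The coding genes with the largest falls, among those averaging at least 10 CPM with groups apart, were named by size of change. Cpeb4, which controls cytoplasmic polyadenylation, went from 56.8, 60.04 and 66.4 normalised CPM to 5.40, 5.13 and 5.33 (log2 -3.52, SE 0.13, adjusted p = 1.1e-09). Elavl1, the RNA-binding protein HuR, had 130.3, 133.6 and 128.4 before and 18.1, 14.0 and 8.82 after UV (log2 -3.25, SE 0.17), and Mbnl1, a splicing regulator, 110.2, 116.6 and 105.6 before and 11.7, 11.3 and 12.7 after (log2 -3.22, SE 0.11). These 3 genes encode proteins that bind mRNA, but the share of such genes among all coding genes was not counted. That the groups were apart was a condition of the choice. The remaining 7 were Cd247 (-3.83, the largest fall of the 10), Mfsd4a (-3.49), Ammecr1 (-3.17), Ino80d (-3.04), Ptp4a1 (-3.01), Pou2f1 (-2.93) and Rbms3 (-2.88, an RNA-binding protein). Cd247 and Pou2f1 overlap in the annotation and may hold the same reads. Of the 10 largest rises, 4 were histones (Hist1h1c, Hist1h4c, Hist1h4h and Hist1h4f), 2 were Ccdc107 and Ccnb1ip1 with the reads of Rmrp and Rpph1, and the others were Rplp1, Cox7a1, Mtln (a mitochondrial micropeptide, 2.38) and Wdr38 (2.38), whose exons overlap those of Rpl35.

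**Figure D3:**
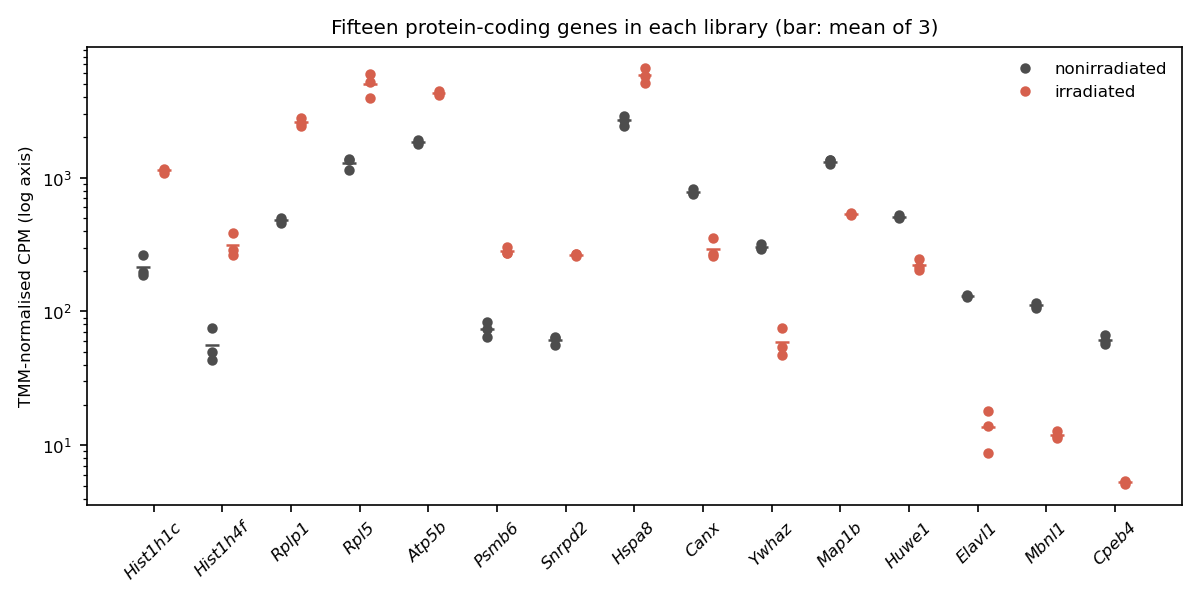
TMM-normalised CPM (log axis) of 15 coding genes in each library, grey for the 3 nonirradiated and red for the 3 irradiated, with a bar at each mean. The groups do not overlap for any of the 15, and Cpeb4 drops from between 56.8 and 66.4 to between 5.13 and 5.40.

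Transcript length and base composition moved with the UV effect across the 13119 coding genes. Spearman's rho between the log2 fold change and the length of all exon bases was -0.53. From the shortest to the longest quartile of genes the median log2 fold change went 0.88, 0.24, -0.18 and -0.73, and the share of genes called lower went 7.74%, 19.4%, 36.4% and 62.5%. For exon GC content rho was 0.39 and the medians by rising quartile were -0.65, -0.25, 0.20 and 0.48. The same coefficient was -0.43 for the length of the 3′ UTR, -0.42 for the coding length and -0.16 for the 5′ UTR. These are descriptions across genes of the same 6 libraries, and genes are not independent replicates. The length and GC effects lay side by side: within the shortest quartile the medians ran from 0.27 in the lowest GC quartile to 1.09 in the highest, and within the longest quartile from -1.04 to -0.22.

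**Figure D4:**
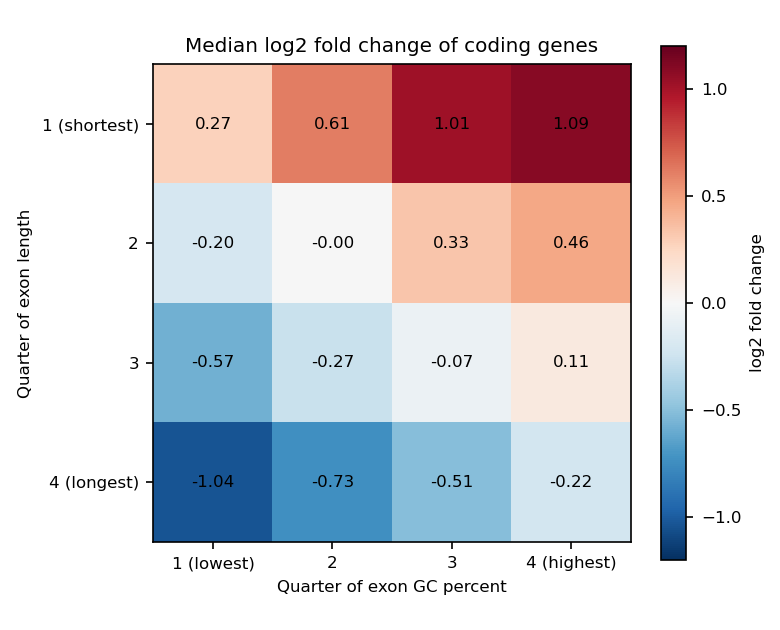
Median log2 fold change, irradiated against nonirradiated, of coding genes in 16 cells by quartile of exon length (rows) and quartile of exon GC percent (columns). The median falls from 1.09 in short, GC-rich genes to -1.04 in long, GC-poor genes.

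Several groups had medians far from that of their length quartile. These quartiles use all annotated exon bases of a gene, not the length of a single mRNA. Cytosolic ribosomal protein genes have a median of 1734 exon bases, but of 453 for the coding length and 87 for the 3′ UTR. For mitochondrial ribosomal protein genes these medians are 2214, 582 and 375. The 17 ribosomal protein genes in the second length quartile all rose, with a median of 2.04 against 0.24 for that quartile, and the 4 in the third quartile had a median of 2.096 against -0.18. Mitochondrial ribosomal protein genes in the longest quartile, 9 of 9 higher, had a median of 1.40 against -0.73. In the opposite direction, SR genes in the second quartile had a median of -0.78 (3 of 3 lower) against 0.24, and the 16 cadherin-like genes there had -1.06 with 9 lower. Methyltransferases and remodellers in the longest quartile, at -0.89 over 35 genes, were close to the -0.73 of that quartile, and Zfp genes followed the quartiles downward, from 0.44 to -0.13, -0.39 and -0.83. These medians carry no test, and the part of length in the results by group was not otherwise tested.

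Among RNA types other than mRNA, small stable RNAs were more often higher than lower. Of 230 snoRNA genes, which guide rRNA modification, 104 rose and 7 fell (45.2% and 3.04%, median 0.80). H/ACA snoRNAs named Snora gave 25 higher and 0 lower of 37 (median 1.45) and C/D snoRNAs named Snord 22 higher and 3 lower of 63 (median 0.60). The difference between the 2 families was not tested. Among the 81 snoRNA genes that share no exon base with another gene, 41 rose and 5 fell (median 1.09). U3, which processes the rRNA precursor and is named after its value was seen, had the largest rise (Rnu3a, 62.3, 68.1 and 62.6 against 604.6, 846.0 and 532.4 normalised CPM, log2 3.36, SE 0.16, adjusted p = 1.9e-09, the gene being listed in 2 entries with the same counts). Scarna10 stood at 83.0, 136.0 and 112.2 before and 500.8, 679.1 and 750.4 after UV (log2 2.54), and the sense-intronic gene Gm28967 annotated over it holds the same counts.

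Of 12 scaRNA genes, which guide snRNA modification in Cajal bodies, 9 rose and 0 fell (median 2.06), with Scarna13 at 2.76 (SE 0.10). The 3 ribozyme entries, Rpph1, Rprl3 and Rmrp, rose by 2.96, 2.97 and 2.54 on the log2 scale. snRNA entries were divided, with 9 higher and 6 lower of 23 (median 1.13), and the 6 that fell were sparse entries, the highest nonirradiated value being 1.011 normalised CPM for Gm22107. The snRNA with the most reads, Gm24265, went from 21.7, 29.8 and 28.6 to 173.0, 290.6 and 187.5 (log2 3.02, SE 0.19), and the minor spliceosome RNA Rnu12, also named after its value was seen, rose by 2.31 on that scale. Reads of libraries made for longer RNA represent such short RNAs only in part.

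**Figure D5:**
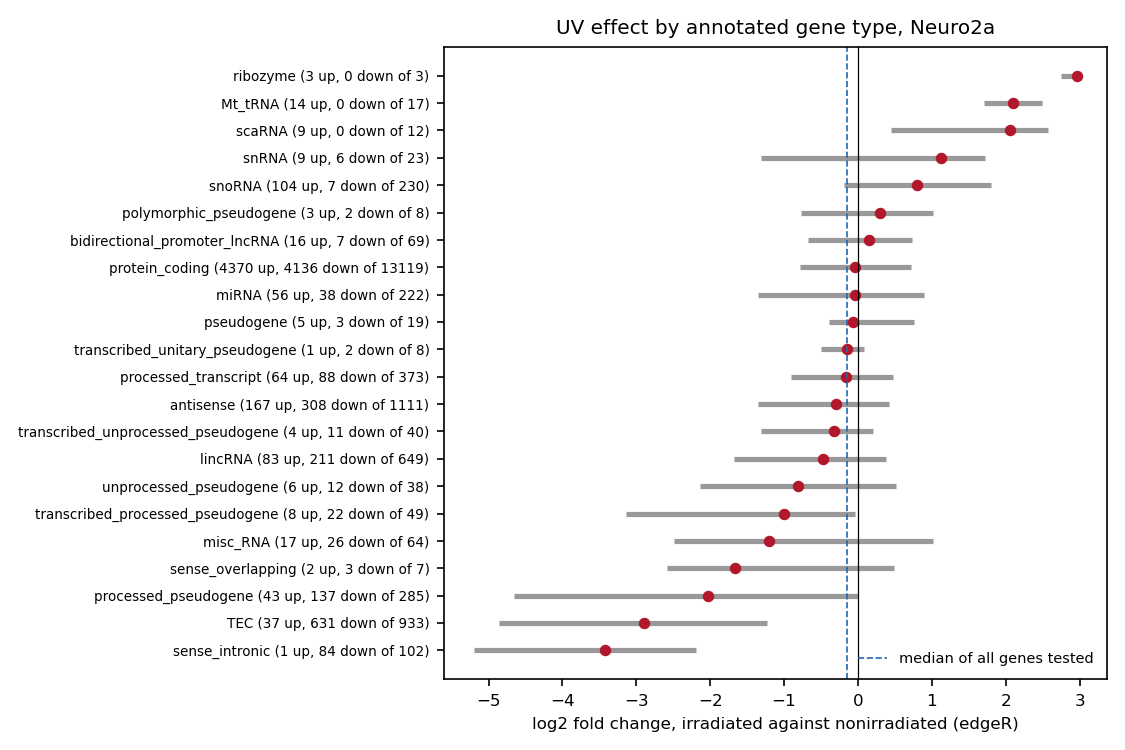
Median (red point) and interquartile range (grey bar) of the log2 fold change by annotated gene type, with the numbers called up and down in the label and the median of all genes, -0.14, as a dashed line. Ribozymes, mitochondrial tRNAs and scaRNAs lie above 2, and sense-intronic genes and TEC genes lie at fitted medians of -3.42 and -2.90, which become -1.51 and -1.22 with genes lacking irradiated counts at their bound.

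TEC and sense-intronic genes were mostly lower. TEC entries, which are expressed sequences awaiting experimental checks, gave 37 higher and 631 lower of 933 (median log2 -2.90, or -1.22 with the 260 entries that had no irradiated count set at their bound). Sense-intronic genes gave 1 higher and 84 lower of 102 (median -3.42, or -1.51 with 37 such genes at their bound). The filter favours falls in genes this low. With a mean of at least 0.5 CPM asked over all 6 libraries, a choice made after seeing the data, TEC entries gave 39 higher and 467 lower of 680 and sense-intronic genes 1 and 61 of 70. With at least 10 counts asked in every library, which removes genes that fell to near 0, 74 TEC entries were left, 23 higher and 16 lower. The most depleted TEC entry, Gm36989, had 8.40, 9.55 and 10.5 normalised CPM before UV and no count after, at least 15.9-fold lower, and Gm49204 was at least 7.1-fold lower. The TEC entry with the most reads, Gm10252, rose by 1.65 on the log2 scale, but its exons overlap those of Ftl1, the ferritin light chain gene.

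TEC entries and pseudogenes were also divided by their position relative to coding genes. Of 688 TEC entries that share no exon base with another gene, 558 lay wholly inside the span of a coding gene, and 460 of these fell and 1 rose (fitted median -3.91, or -1.85 with the 219 entries without an irradiated count at their bound). The coding genes around them had a median of -0.84. Where several tested coding genes on either strand enclosed an entry, the one with the highest log2 fold change was taken as its host. That choice can only raise the counts of entries below their host. By the fitted values 540 of the 558 entries were below their host, and with those entries at their bound 395 were. For the 130 entries outside coding genes, 72 fell and 4 rose (fitted median -2.15, or -1.10 with 23 entries at their bound). All 87 unshared sense-intronic genes lay inside a coding gene, and 82 were below their host by fitted values and 60 with 34 genes at their bound (median -3.79 and -1.58). Calls in processed pseudogenes, copies of mRNAs inserted in the genome, also differed in number: of 134 inside coding genes 85 were lower and 10 higher, and of 120 outside 34 were lower and 30 higher. Their fitted medians were -3.21 and -0.36, but -0.43 and 0 with the 58 and 13 genes without an irradiated count at their bound. The differences between positions were not tested, and the entries inside genes are set by the same filter.

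Pseudogenes can also carry reads of the gene they copy. Over all 285 processed pseudogenes 43 rose and 137 fell (median -2.02, or -0.35 with 75 genes without an irradiated count at their bound). The most abundant, Gm11942, rose from 60.7, 66.2 and 61.6 to 311.4, 358.7 and 385.6 normalised CPM (log2 2.48, SE 0.11, adjusted p = 1.6e-09). In the subset with at least 10 counts in every library, 29 of 35 processed pseudogenes rose and 1 fell. Whether these reads come from the pseudogene or its parent cannot be told apart in gene counts.

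Some further types split by what their entries overlap. Of 64 miscellaneous RNA entries, 31 share exon bases with a lncRNA, being conserved segments of Miat, Kcnq1ot1, Tug1, Neat1, Xist, Malat1 and others, and of these 19 fell and 4 rose (median -2.09, or -1.70 with 3 entries at their bound). Of the other 33, 13 rose and 7 fell, and the most positive were the 7SL genes Rn7s1 (8.32, 5.76 and 6.78 against 185.1, 146.4 and 147.1 normalised CPM, log2 4.52) and Rn7s2 (4.48), with the miRNA entries Gm47287, Gm47295 and Gm47299 inside them at 4.44, 4.42 and 4.49. Of 222 miRNA entries, 180 share exon bases with a host gene, 49 of them higher and 25 lower. The 42 that do not gave 7 higher and 13 lower (median -1.36, or -0.53 with the 8 entries without an irradiated count at their bound). As the libraries were not made for short RNA, miRNA entries count precursor or host reads, not mature miRNAs.

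Hippocampal neuron cultures of the same series, 3 irradiated and 3 nonirradiated, gave the test of whether these effects were the same size in other neural cells. The primary cultures came from embryonic mouse hippocampus. Over 14973 genes tested in both, the UV effect was more positive in Neuro2a for 8.39% and more negative for 16.1%, by the interaction term of edgeR's quasi-likelihood fit. With DESeq2 size factors those counts went from 1256 and 2411 to 1765 and 1898, so the balance between the directions depends on the scaling. Of 83 cytosolic ribosomal protein genes, 75 were more positive in Neuro2a and 0 more negative, and the medians of the log2 fold change were 2.04 in Neuro2a and 1.45 in HippCulture. Respiratory chain genes gave 59 and 0 of 87 (1.81 and 1.30), and proteasome genes 15 and 0 of 36. Lists with mostly lower genes went the other way: cadherins, protocadherins and teneurins gave 0 more positive and 41 more negative of 76 (-1.04 and -0.37), large ubiquitin ligases 0 and 20 of 25 (-1.01 and -0.46), and methyltransferases and remodellers 0 and 20 of 37 (-0.84 and -0.38). Of 55 replication-dependent histones, 5 differed, all more positive in Neuro2a (2.17 and 1.82). In each of these lists the HippCulture median was smaller in size, whether positive or negative. This did not hold for every list, as cell division genes had medians of 0.10 in Neuro2a and 0.42 in HippCulture. The paper describes a milder decrease of lncRNA reads in HippCulture than in Neuro2a. Whether the differences are particular to these functions was not tested.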

How the data were processed

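RNA-seq was made from 3 irradiated and 3 nonirradiated Neuro2a libraries. Per the file headers, the authors deposited raw read counts per gene from featureCounts 1.6.1 on GENCODE M17; the submitters' notes name TopHat2 2.1.1 and mm10. The strand setting is not given in the sources used here, so reads of antisense or overlapping genes cannot be told apart. Gene spans, types and exon sequences came from GENCODE M21 on GRCm38, which held 99.82% of the gene IDs. Counts were fitted with edgeR 4.0.16 (R 4.3.3) using TMM factors on the 6 libraries, whose totals (7449341 to 9002243) limit precision at low counts. DESeq2 1.42.0, other filters and scalings, a replicate block and leaving out each library were alternatives. Hippocampal cultures entered an interaction fit. The fitting script was tested on simulated data.

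The members and gene lists were chosen with earlier results of these data known. Genes named were the 10 largest coding rises and falls (past the threshold, groups apart, mean of at least 10 CPM), 5 and 5 of other types that are not lncRNAs (mean of at least 1 CPM), up to 4 members per list (2 most abundant, most positive, most negative), the most abundant gene of each RNA type, the 10 genes with most counts and the identity markers. The interaction names the 2 most abundant members of 4 lists. Others are named because a count or sequence singled them out. The text prints a selection of them, and a few are not reported here.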

Additional observations from a re-analysis of the deposited data

Results flagged for a closer look

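Of the 8 genes followed in both cell types, 5 had a UV effect that differed between Neuro2a and the hippocampal cultures by the interaction term of the edgeR fit. Rpl5 was 0.85 higher on the log2 scale in Neuro2a (1.97 against 1.11, SE of the difference 0.18, adjusted p = 0.0021) and Rpl3 0.65 higher (1.78 against 1.12, SE 0.20, adjusted p = 0.022). Plxna1, a semaphorin co-receptor, differed by -0.76 (-1.05 against -0.30, SE 0.20, adjusted p = 0.0088), Zfp638 by -0.58 (-0.98 against -0.40, SE 0.18, adjusted p = 0.021) and Nrp2 by -0.46 (-1.34 against -0.89, SE 0.14, adjusted p = 0.019). The call for Rpl3 was lost without irradiated replicate 2 or 3 or nonirradiated replicate 1 (adjusted p = 0.059, 0.065 and 0.054), that for Zfp638 without nonirradiated replicate 3 (adjusted p = 0.051), and that for Nrp2 without nonirradiated replicate 2 (adjusted p = 0.065) and with DESeq2 size factors (adjusted p = 0.057). Those for Rpl5 and Plxna1 were kept under every alternative run. Atp5a1 (0.37, adjusted p = 0.054), Atp5b (0.25, adjusted p = 0.2) and Zfp207 (-0.07, adjusted p = 0.77) did not pass the test. The cell types were separate libraries and cultures, and their part in these differences cannot be told apart.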

How the results depend on the processing

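Counts of 5033 higher and 5746 lower genes stayed within 1.5 times under the other tests and filters, apart from the following. Among genes sharing no exon base, where fewer genes were tested, they were 2906 and 3583. With library sizes alone, which use no TMM factors, they were 1058 and 12852. Under that scaling cytosolic ribosomal proteins gave 84 higher and 1 lower of 85, histones 53 and 3 of 57, and respiratory chain genes 67 and 6 of 91. Proteasome genes gave 12 and 6 of 37, glycolytic enzymes 2 and 9 of 17, and chaperones 1 and 13 of 18. Tubulins and actins gave 0 and 5 of 15, aminoacyl-tRNA synthetases 0 and 18 of 20, and nucleotide excision repair genes 0 and 19 of 25. Rises in such groups are relative to the other genes only. Leaving out 1 library gave 4644 to 4966 higher and 5322 to 5664 lower. With the replicate block there were 5353 and 6035 calls. Same-numbered libraries deviated together with r of 0.228, 0.083 and 0.108, and each library correlated best with its own number. Between differently numbered libraries r ran from -0.165 to 0.073. Whether the numbers pair the samples is not settled by these values, and the main fit used no block. The interaction gave 1854 and 3039 calls with the replicate block. RNA types with a median above that of all genes went from 10 to 17 of 22 with at least 10 counts in every library.

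For exon length rho was -0.65 with at least 10 counts in every library, -0.24 with every gene of at least 1 count, -0.5415 among genes sharing no exon base and -0.56 with the mean taken over all 6 libraries, and -0.5314 to -0.5237 without 1 library. For GC content it was 0.44 and 0.34 under the first 2 of these filters. For the 3′ UTR it was -0.52, -0.23, -0.45 and -0.46 under the same 4, and for coding length -0.50, -0.21, -0.41 and -0.44, and -0.4237 to -0.4099 without 1 library. The cause was not tested.

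Without the 10 genes with the most counts, the difference in share, irradiated minus nonirradiated, was -17.2 percentage points for other coding genes, 13.5 for ribosomal protein mRNAs, -1.235 for lncRNAs, 0.762 for mitochondrial rRNAs, 0.127 for mitochondrial mRNAs, -0.2055 for TEC genes, -0.0974 for pseudogenes, 0.566 for small RNAs and 0.8595 for other types, the denominator being smaller.

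Among genes picked by the naming rule, Srsf3, Hnrnpab, Polr2b, Hspa5, Jund, Cacna1e, Efna4, Camk2a, Pecam1, Snap25 and Zfp862-ps lost their call under at least 1 alternative. The named genes whose sign turned were not past the threshold in the first place. Mrps2 was 0.027 among genes sharing no exon base, 0.14 with library sizes alone relative to the median of all genes and 0.0028 with TMM set without the most abundant RNA classes. Under library sizes alone Ndufaf4 was 0.031, Eef1e1 0.027, Ddb1 0.11 and Ret 0.092, and Ddb1 was 0.010 among genes sharing no exon base. With at least 10 counts in every library Psmd1 was -0.079, Eif4b -0.0081, Srsf7 -0.093 and Tubb3 -0.135. With every gene of at least 1 count Psmd1 was -0.023, Srsf7 -0.037 and Tubb3 -0.079. Tubb3 was also -0.043 with DESeq2 size factors and with the DESeq2 test, and -0.015 with the mean over all 6 libraries. The difference of Zfp207 between the cell types was 0.025 with DESeq2 size factors. Leaving out each library in turn, the log2 fold change ranged from -0.27 to 0.12 for Mrps2, -0.084 to 0.15 for Psmd1, -0.092 to 0.12 for Srsf7, -0.0698 to 0.0238 for Ddb1, -1.10 to 0.11 for Nedd4l, -0.074 to 0.61 for Dcn, -1.64 to 0.35 for Grin2b, -0.60 to 0.11 for Dbh, -0.13 to 0.0091 for Ret, -0.69 to 0.28 for Isl1 and -0.0773 to 0.07995 for Tubb3.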
